A study of Mus musculus with 18 samples.

Results

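Circular RNAs form when a splice donor is joined back to an upstream splice acceptor. The intron letters that flank such a circle are then read as AG before its first base and GT after its last base, and the long-read (Oxford Nanopore, ONT) tables give this pair for every circle. Described here are the circles whose pair was anything other than AG-GT in the 8 ONT tables. By chromosome, start and end, 39870 of 166212 ONT circles (24%) lacked AG-GT in at least 1 library. Of these, 9 had AG-GT in another library, and the other 39861 circles, with 201535 reads, are the ones described unless stated otherwise. The background was the 126342 circles with AG-GT, of which 45370 were listed without and 80972 with an asterisk after the pair. The files do not say what the asterisk means.

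The RNA came from whole brains of male C57BL/6J mice of 3 to 4 months, with 3 biological replicates per genotype and sequencer. Adar1-2KO brains were Adar1E861A/E861A Ifih-/-Adar2-/-Gria2R/R, in which ADAR1 is catalytically inactive and ADAR2 is absent. Adar2KO brains were Adar2-/-Gria2R/R, so that both mutant groups shared the Adar2 knockout and the Gria2 R/R alleles. WT brains were wild type and carried none of these alleles. ADAR1 and ADAR2 are enzymes that convert adenosine to inosine in double-stranded RNA. The Gria2 R/R allele encodes the edited form of a glutamate receptor subunit that ADAR2 normally edits, and Ifih encodes a sensor of double-stranded RNA. Total RNA was digested with RNase R, which degrades linear RNA, and primed with random hexamers for rolling reverse transcription, so that 1 circle could be copied several times. ONT libraries of replicates 1, 2 and 3 were used for both mutants and of replicates 2 and 3 for WT; WT replicate 1 was not analysed here. In lists of reads below, the values of a genotype follow the order of these replicate numbers. All 9 Illumina libraries, quantified by CIRIquant, served to look up the same coordinates.

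Most introns begin with GT and end with AG and are removed by the major spliceosome. A small number of introns begin with GC, and a few begin with AT and end with AC and are removed by the minor, U12-dependent spliceosome. An excised intron is released as a lariat, a loop in which its first base is bonded to a branch point a short way upstream of its end. Such loops also resist RNase R, and a read around a lariat need not show the acceptor and donor letters that a back-splice shows.

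The 8 ONT libraries listed 22347 to 47174 circles with 186594 to 673705 reads, and no listed circle had fewer than 2 reads. Adar1-2KO replicate 3 stood apart, with 673705 reads in 23441 circles. In it 81.5% of the circles without AG-GT had more than 2 reads, and they averaged 13.03 reads. The deposited counts carry no molecular identifiers, so any counting precision refers to reads and not to molecules. All 10 genes of a neuronal marker list hosted circles with AG-GT or without it. So did 6 of 7 microglial and 5 of 6 endothelial marker genes, and 14825 host genes were named in all. Hosting a circle therefore does little to check the brain label. Circles of Adarb1, the gene of ADAR2, had 37, 29 and 66 reads in Adar1-2KO brains, 55, 59 and 46 in Adar2KO brains and 3 and 5 in WT brains. Where the deleted part lies relative to these circles is not given in the sources used here, so these reads do not check the labels.

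The field that gives the pair fell into 7 kinds for circles without AG-GT, and the kinds are shown because their letters are the only junction sequence in the tables. The largest kind had no pair at all and read None in 17384 circles (43.6% of the circles without AG-GT) with 62355 reads. In 4 kinds the pair carried an asterisk. AG-GC* was the pair of 6105 circles with 27972 reads, AG-AT* of 6022 circles with 33171 reads, AC-AT* of 4084 circles with 16150 reads and AC-GT* of 1018 circles with 4169 reads. The word lariat stood in the field for 1372 circles with 7172 reads. The remaining 3876 circles had other letters and no asterisk. They made up 9.72% of the circles without AG-GT but held 50546 reads, 25.1% of the reads. With an asterisk 5 different pairs occurred in the tables, AG-GT* included, against 233 different pairs without an asterisk among the circles without AG-GT. A None circle had no strand in 17746 of 17748 records, and a lariat record was on the plus strand in 1781 of 1783 cases.

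As a whole, circles without AG-GT were short, had few reads and were rarely listed a second time. Their median span was 787 bases, with an interquartile range of 557 to 1137, and 61.6% had 2 reads in all libraries together. In 94.5% of cases a circle was listed in 1 library only, and 71 circles were listed in all 8 libraries. Of AG-GT circles without an asterisk, 47.8% were listed in 1 library and 4262 in all 8, and of AG-GT circles with an asterisk 88.6% were listed in 1 library and 301 in all 8. A record of several blocks, which is how the tables give several exons, was found for 12.1% of the circles without AG-GT, against 95.6% of the AG-GT circles without and 24.3% of those with an asterisk.

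**Figure D1:**
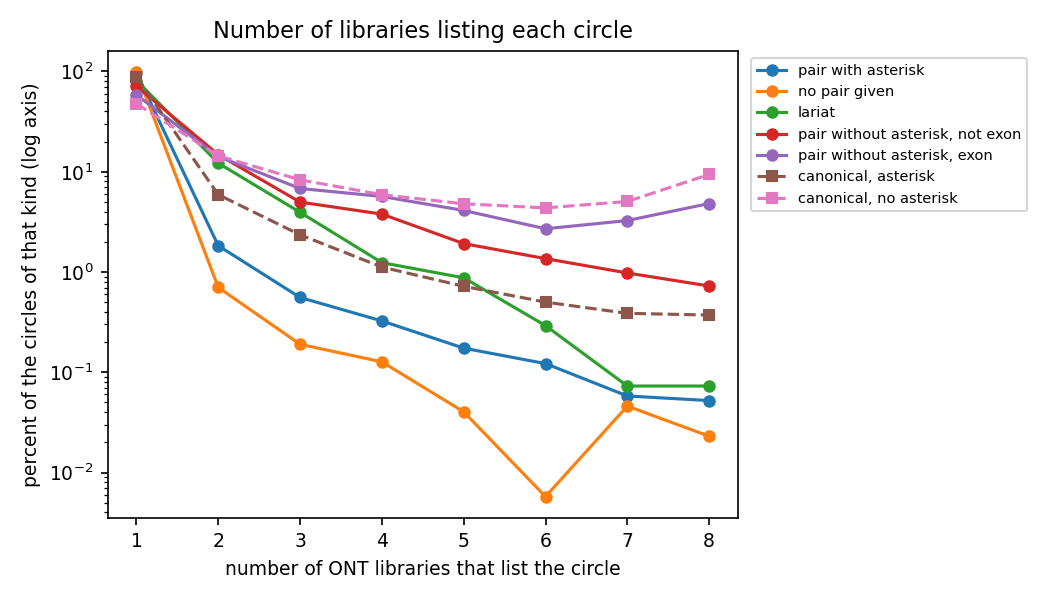
The horizontal axis gives the number of ONT libraries, from 1 to 8, that list a circle, and the vertical log axis gives the percent of circles of each kind. None circles fall most steeply, with 98.9% in 1 library. Circles with other letters and no asterisk are drawn as 2 lines, exon class and not exon class, with 58.4% and 71.4% in 1 library. Of the circles without the canonical pair, the exon-class line is lowest at 1 library and highest at 8, with 4.82%.

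Within every library the circles without AG-GT differed from those with AG-GT in 14 of 15 measures by a two-sided exact sign-flip permutation test over the 8 libraries, with the smallest p the test can give, 0.00781, and a Benjamini-Hochberg adjusted p of 0.00837. The measures overlap, so the 14 are not separate results. The share with a named host, for example, mirrors the intergenic share. Mean reads per circle were 4.892 ± 3.296 without AG-GT and 13.06 ± 7.723 with AG-GT (SD, n = 8). The median span was 798.7 ± 68.65 bases without AG-GT and 5380 ± 986.8 bases with AG-GT. The share listed in another ONT library was 16.17% ± 4.389 without AG-GT and 60.43% ± 7.011 with AG-GT. Among circles with exactly 2 reads in a library the shares were 7.576% ± 2.145 without and 35.88% ± 7.587 with AG-GT. The share found at the same coordinates in any CIRIquant table was 3.188% ± 0.6754 without AG-GT and 59.31% ± 3.795 with AG-GT. Every one of these differences had the same direction in 8 of 8 libraries. Whether CIRIquant lists circles of every kind equally well was not tested. Absence from its tables therefore does not show that a circle was absent from the Illumina libraries.

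Set against AG-GT circles with an asterisk alone, the differences in span, reads per circle and listing elsewhere were smaller, while the difference in the antisense share was larger. Antisense circles were 4.099% ± 0.3935 of those without AG-GT, 13.77% ± 0.6096 of the asterisk background and 5.955% ± 0.6322 of all AG-GT circles (SD, n = 8). By kind the means were 10.42% for AG-GC*, 9.513% for AG-AT*, 10.02% for AC-AT* and 0.1923% for AC-GT*. They were 1.53% for other letters without an asterisk and 0 for None and for lariat circles. Nearly all None circles lacked a strand, and whether the low pooled share follows from this was not tested. The asterisk background was listed in another library in 29.65% ± 7.169 of cases and in CIRIquant in 13.42% ± 1.324, and its median span was 896.9 ± 77.67 bases (SD, n = 8). Circles without AG-GT were more often of the authors' intron class than all AG-GT circles, at 12.53% ± 0.6087 without AG-GT and 7.016% ± 0.4076 with AG-GT, and less often than the asterisk background, at 16.28% ± 1.493. The measure that did not pass was nearness. Only 7 of 44528 records without AG-GT had both ends within 10 bases of an AG-GT circle in the same library, so few of these circles were listed beside an AG-GT circle with slightly shifted ends (exact permutation p = 0.0625).

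The authors' class placed 62.6% of the circles without AG-GT between genes, 20.6% in exons, 12.7% in introns and 4.1% antisense to a gene. The corresponding shares of AG-GT circles were 25.2%, 56.8%, 8.97% and 9.02%. The intergenic class was not the same as lying outside genes, since 7787 of the 24955 intergenic circles without AG-GT (31.2%) lay inside the span of an AG-GT circle without an asterisk. A host gene was named for 14906 circles (37.4%), and 7138 genes hosted them. Of these genes, 4048 (56.7%) hosted a single such circle and 140 hosted 10 or more.

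**Figure D2:**
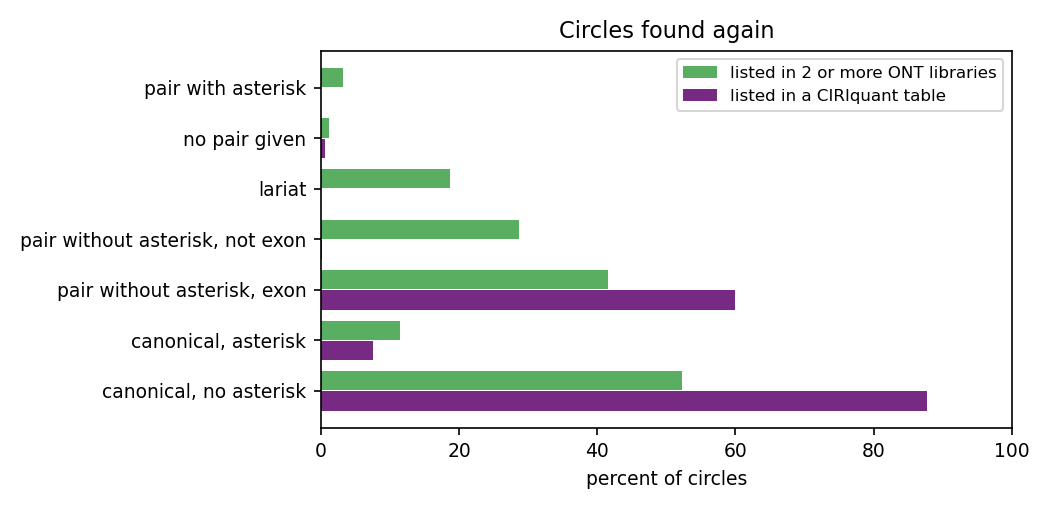
Each pair of bars gives, for one kind of circle, the percent listed in 2 or more ONT libraries and the percent listed in a CIRIquant table, on an axis from 0 to 100 percent. Exon-class circles with other letters and no asterisk reach 41.6% and 60%, while None circles reach 1.13% and 0.604%.

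The circles most often found again were those of the exon class with other letters and no asterisk. There were 705 of them with 24211 reads, 1.77% of the circles and 12% of the reads without AG-GT. Their median span was 7893 bases, 85.7% had several blocks, 41.6% were listed in 2 or more libraries and 423 (60%) were in CIRIquant. They held 232735 of the 257819 CIRIquant reads found at the coordinates of circles without AG-GT. By these measures they lay between the other circles without AG-GT and the AG-GT circles without an asterisk, of which 52.2% were in 2 or more libraries and 87.7% in CIRIquant.

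Part of this group had lower-case letters in its pair. In the tables, 1003 records had lower-case letters in the pair, none of them with an asterisk. On the plus strand 475 of 512 such records read AG-GT as written, which the rule here counts as AG-GT. On the minus strand 3 of 491 did so as written, but 447 of 491 read AG-GT once their lower-case letters were complemented. Complementing the lower-case letters on the plus strand left 2 of 512. The files do not state how these letters were made. The minus-strand records belonged to 183 circles without AG-GT with 10705 reads, which is 0.459% of the circles and 5.31% of the reads. The most frequent pairs among them are shown with the letters as deposited and the number of circles of any class.
AG-ca: 89 circles
tc-GT: 79 circles
AG-Ga: 9 circles
tG-GT: 4 circles
Of the 183 circles, 164 (89.6%) were in CIRIquant, with 144209 reads, 55.9% of all CIRIquant reads at circles without AG-GT. They came from 119 host genes, had a median span of 9554 bases, and 11 of them were listed in all 8 libraries. Without them, 39678 circles lacked AG-GT, 60 of these were in all 8 libraries and 370 were in CIRIquant.

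The circle without AG-GT that CIRIquant counted most was one of these. Rnf169, which encodes a ubiquitin-binding protein of the DNA damage response, hosted the circle chr7:99584369-99604747 (GRCm39, minus strand) with the pair tc-GT. It had 610, 368 and 1187 ONT reads in Adar1-2KO brains, 432, 288 and 383 in Adar2KO brains and 201 and 229 in WT brains. Per 100000 reads of the library this was 136, 124 and 176 in Adar1-2KO brains, 119, 64.3 and 90 in Adar2KO brains and 97.9 and 123 in WT brains, so that the Adar1-2KO values lay above all others. In whole brain, fewer cells of a type and less RNA per cell cannot be told apart. CIRIquant counted 64827 reads at these coordinates. Per 100000 back-splice reads this was 230, 287 and 286 in Adar1-2KO brains, 249, 220 and 292 in Adar2KO brains and 247, 246 and 295 in WT brains, and here the genotypes overlapped. The circle held most of the 3708 reads without AG-GT in Rnf169, which were 87.5% of the ONT circle reads of that gene.

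Ptk2, the gene of focal adhesion kinase, hosted chr15:73128883-73140742 with the pair AG-ca. The circle had 186, 140 and 610 reads in Adar1-2KO brains, 181, 185 and 240 in Adar2KO brains and 117 and 122 in WT brains. Ptk2 hosted 11 circles of this written pair. Mpzl1, a cell surface protein related to myelin protein zero, hosted chr1:165432179-165436173 with tc-GT, which had 83, 42 and 56 reads in Adar1-2KO brains, 102, 118 and 111 in Adar2KO brains and 30 and 58 in WT brains. CIRIquant counted 15133 reads for the Ptk2 circle and 6394 for the Mpzl1 circle. The circle chr7:113918688-113920486 of 4933406I18Rik had 0, 33 and 0 reads in Adar1-2KO brains, 248, 138 and 285 in Adar2KO brains and 56 and 36 in WT brains. The Adar1-2KO values were the lowest of the 3 genotypes and included 2 unlisted libraries, where an unlisted circle can still have had 1 read. CIRIquant counted it in all of them, with 40.8, 29.8 and 18.2 per 100000 back-splice reads in Adar1-2KO brains, 72.8, 38.8 and 93.8 in Adar2KO brains and 54.1, 35.6 and 45.8 in WT brains, and the Adar1-2KO values overlapped those of both other genotypes. The circle chr3:135361261-135375100 of Nfkb1, which encodes a subunit of the NF-kappaB transcription factor, had 28 reads in WT replicate 3 and was unlisted in the other 7 ONT libraries, although CIRIquant counted 8911 reads at these coordinates over 9 libraries.

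In Rnf214, a ring finger protein gene, the circle chr9:45802102-45811554 with the pair tc-GT had the lowest p of any circle without AG-GT between the mutants. It had 172, 122 and 277 reads in Adar1-2KO brains, 76, 102 and 72 in Adar2KO brains and 54 and 53 in WT brains. It averaged 40.2 ± 1.59 reads per 100000 in Adar1-2KO brains and 20.2 ± 2.99 in Adar2KO brains (SD, n = 3 each), and 27.4 ± 1.48 in WT brains (SD, n = 2). The 3 Adar1-2KO libraries were thus above all 5 others. The log2 fold change between Adar1-2KO and Adar2KO was 1.03 with an SE of 0.23, which did not pass in edgeR (adjusted p = 0.131) and passed in DESeq2 with a log2 fold change of 1.07 (adjusted p = 0.00942). CIRIquant counted, per 100000 back-splice reads, 29.6, 30 and 41.2 in Adar1-2KO brains, 21.9, 28.5 and 24.3 in Adar2KO brains and 24.7, 28.7 and 26.8 in WT brains. The Adar1-2KO values were again above the others, by a smaller margin.

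The other 523 exon-class circles had letters that did not read AG-GT in either way, and AG-GC was the most frequent pair. In the exon class 298 circles from 199 host genes carried AG-GC, with 9007 reads, and 246 of them (82.6%) were in CIRIquant. A GC donor is the best known variant of the major spliceosome's donor. Asph, the gene of aspartate beta-hydroxylase, hosted chr4:9635901-9639347 with 350, 202 and 333 reads in Adar1-2KO brains, 339, 195 and 309 in Adar2KO brains and 113 and 169 in WT brains. It was listed in all 8 libraries, and CIRIquant counted 25044 reads for it. Fat1, an atypical cadherin, hosted chr8:45403233-45406518 with 154, 114 and 0 reads in Adar1-2KO brains, 192, 438 and 226 in Adar2KO brains and 102 and 97 in WT brains. Circles without AG-GT held 93.1% of the ONT circle reads of Fat1. The 0 belongs to Adar1-2KO replicate 3, the library that stood apart. In CIRIquant the Fat1 circle had 731 reads in the Adar1-2KO library of that number, of 11049 reads over 9 libraries.

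Further AG-GC circles came from Mkln1, which encodes muskelin, from Crlf3, a cytokine receptor-like gene, and from Rims2, a scaffold of the presynaptic active zone. The Mkln1 circle chr6:31395866-31436002 had 95, 82 and 71 reads in Adar1-2KO brains, 104, 88 and 132 in Adar2KO brains and 49 and 39 in WT brains. The Crlf3 circle chr11:79947278-79955225 had 50, 24 and 65 reads in Adar1-2KO brains, 58, 56 and 64 in Adar2KO brains and 20 and 23 in WT brains. Per 100000 reads, the Mkln1 values overlapped between all 3 genotypes. Those of Crlf3 were 11.1, 8.08 and 9.65 in Adar1-2KO brains, 15.9, 12.5 and 15 in Adar2KO brains and 9.74 and 12.3 in WT brains, and those of the mutants did not overlap, with a log2 fold change between Adar1-2KO and Adar2KO of -0.53 and an SE of 0.3 that did not pass in edgeR (adjusted p = 0.616). In CIRIquant the Crlf3 values were 17.7, 12.1 and 24.3 per 100000 back-splice reads in Adar1-2KO brains, 15.8, 17.3 and 14.1 in Adar2KO brains and 11.2, 14 and 17.3 in WT brains, and these overlapped. Rims2 hosted 9 exon-class AG-GC circles, and the 4 with most reads had the same last base, position 39430439 of chromosome 15, with first bases from 39315620 to 39398234. The shortest of these had 9, 12 and 123 reads in Adar1-2KO brains, 5, 8 and 9 in Adar2KO brains and 3 and 8 in WT brains. Its high value came from Adar1-2KO replicate 3 alone. In CIRIquant the Adar1-2KO library of that number held 1762 of the 2417 reads of this circle. Per 100000 back-splice reads this was 40.9, against 0 to 6.72 in the other Illumina libraries.

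AC-GT without an asterisk was the opposite case in CIRIquant. In the exon class 25 circles from 22 host genes had this pair, with 2866 reads. They were listed in 2 or more libraries in 52% of cases, but only 1 of the 25 was in CIRIquant. That circle, chr16:93644171-93650105 of Morc3, a nuclear ATPase gene, had 213, 112 and 322 ONT reads in Adar1-2KO brains, 208, 107 and 191 in Adar2KO brains and 104 and 125 in WT brains. Of the 920 reads that CIRIquant gave it, 887 were in Adar1-2KO replicate 3. The Tmem87b circle chr2:128683155-128690977, from a gene of a Golgi membrane protein, had 104, 59 and 304 ONT reads in Adar1-2KO brains, 89, 52 and 89 in Adar2KO brains and 45 and 37 in WT brains, and no CIRIquant read. Circles without AG-GT held 99.5% of the ONT circle reads of Tmem87b and 73.7% of those of Morc3.

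AC is the acceptor of AT-AC introns, so host genes known to carry U12-type introns were looked up as a list. Of 42 such genes, 39 hosted any ONT circle and 27 hosted 89 circles without AG-GT, with 678 reads. These were 13.8% of the circles of the list, against 13.6% for all named hosts. The circle with most reads in the list had the pair AC-GT without an asterisk. This Slc9a7 circle chrX:20028167-20028778 had 18, 8 and 0 reads in Adar1-2KO brains, 27, 61 and 46 in Adar2KO brains and 14 and 7 in WT brains. The gene encodes a sodium/proton exchanger of intracellular membranes. Cacna1a, a calcium channel gene of the list, hosted an AC-GT circle of 91641 bases with 20 reads. The 13 genes of a list of minor spliceosome components hosted 11 circles without AG-GT with 37 reads. Among these the Snrnp48 circle with the pair AG-GC, chr13:38395043-38401471, had 13 ONT reads and 107 CIRIquant reads.

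**Figure D3:**
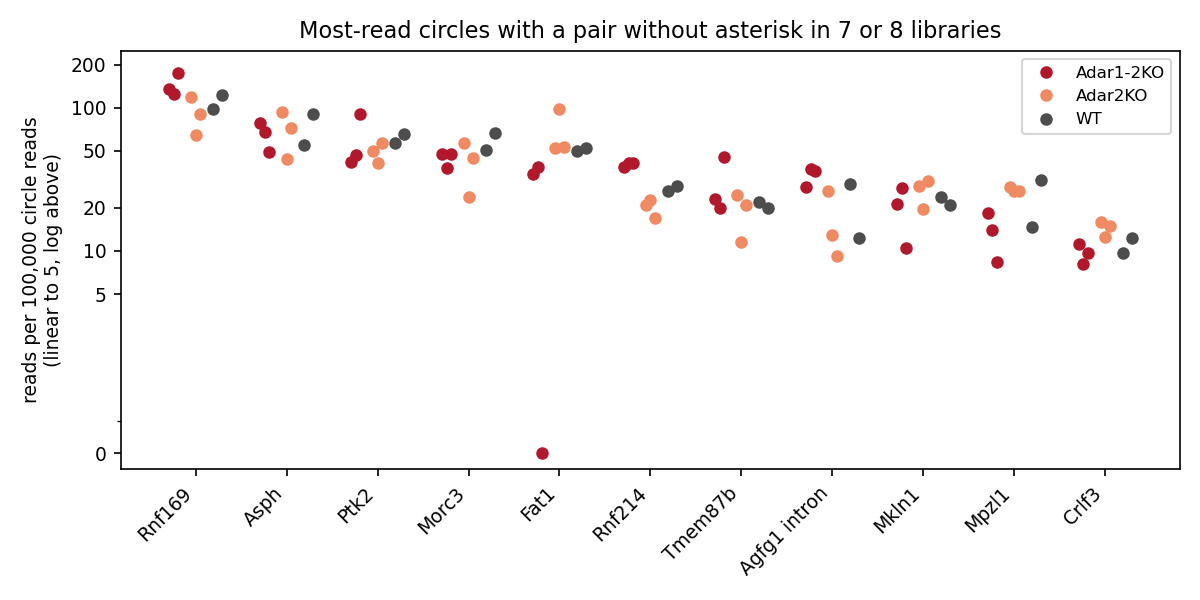
Points give the reads per 100000 ONT reads of each library for 11 named circles, with Adar1-2KO left, Adar2KO in the middle and WT right at each circle. The axis is linear up to 5 and logarithmic above, and points at 0 are libraries that do not list the circle. The 3 Adar1-2KO points of Rnf214 lie above its other points, while the points of Asph overlap between the genotypes.

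Circles with other letters and no asterisk that were not of the exon class were short, and many of them were whole introns. Introns were taken as the gaps between neighbouring exons of AG-GT circles without an asterisk, which gave 73704. The first and the last base of 1435 circles without AG-GT were exactly the first and last base of such an intron, and 1434 of them had other letters and no asterisk. They made up 37% of all circles of that kind. The authors' class put 1326 of these 1435 between genes. Because the pair is read outside the circle, it falls in the adjoining exons here, and 198 different pairs were found, with AG in the first place in 42.5%. The field that repeats the bases shared by the ends began with G in 93.1%, the base with which nearly all introns begin. Median span was 800 bases, with an interquartile range of 580 to 1064 and extremes of 80 and 3005, against a median of 1932 for all 73704 introns. Spans of 400 to 1500 bases were found for 84.3% of the whole-intron circles and 28.3% of all introns.

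The whole-intron circles held 11627 reads and came from 1160 genes. Of them 410 (28.6%) were listed in 2 or more libraries and 10 in all 8. Only 3 were in CIRIquant. As a share of all circles of the library they made up 0.713%, 0.698% and 0.55% in Adar1-2KO brains, 1.05%, 1.08% and 1.09% in Adar2KO brains and 0.694% and 0.51% in WT brains. The Adar2KO libraries were above all others. As a share of reads they were 0.374%, 0.335% and 0.3% in Adar1-2KO brains, 0.428%, 0.532% and 0.454% in Adar2KO brains and 0.33% and 0.225% in WT brains, with the same order of groups. This set was defined after values had been seen, so no test is given.

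Among the whole-intron circles with most reads, chosen after their values were seen, were introns of Agfg1, Trerf1 and Cacna1c. Agfg1 encodes a protein of the Arf GTPase-activating family, and its circle chr1:82871304-82872196 with the pair TG-GT had 126, 111 and 244 reads in Adar1-2KO brains, 96, 58 and 39 in Adar2KO brains and 60 and 23 in WT brains. Per 100000 reads these were 28.1, 37.4 and 36.2 in Adar1-2KO brains, 26.3, 13 and 9.17 in Adar2KO brains and 29.2 and 12.3 in WT brains, so that the Adar1-2KO values lay above the Adar2KO values and on both sides of the WT values. Trerf1, a transcription regulator gene, hosted chr17:47626427-47627539, which had 2.45, 3.7 and 10.8 reads per 100000 in Adar1-2KO brains, 7.96, 12.7 and 18.1 in Adar2KO brains and 21.9 and 18.2 in WT brains. Its WT values lay above all the others, but the log2 fold change between Adar1-2KO and WT, -1.66 with an SE of 0.57, did not pass in edgeR (adjusted p = 0.534). The Cacna1c circle chr6:118673608-118674593, in a calcium channel gene, had 329 reads in 7 libraries and none of these 3 circles had a CIRIquant read.

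Lariat circles showed a different arrangement at introns, and whether these were the introns of the whole-intron circles was not examined. Of the 1372 circles, 627 (45.7%) began at the first base of an intron. For 536 of these the intron's end was known, and the circle ended a median of 26 bases before it, with an interquartile range of 22 to 31.2. In 90.3% the end lay 15 to 45 bases before the intron's end, the region in which branch points are known to lie. AG-GT circles with an asterisk held more circles of this shape. In that kind 2974 circles (3.67%) began at an intron's first base, and 2546 with a known end stopped a median of 26 bases before it (interquartile range 22 to 34), 83.6% of them at 15 to 45 bases. These lay on both strands, 1350 on plus and 1196 on minus, whereas 1371 of the 1372 lariat circles were on plus.

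**Figure D4:**
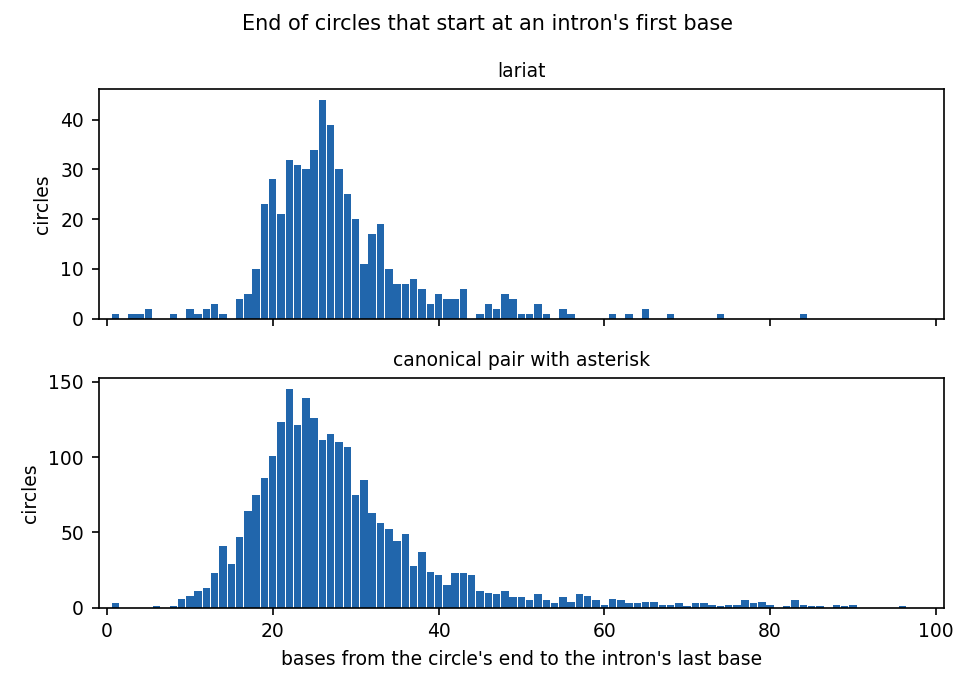
Bars count circles that begin at an intron's first base by the number of bases from the circle's end to the intron's last base, for lariat circles above and asterisk circles with the canonical pair below. Both panels peak near their common median of 26 bases.

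Other kinds with an asterisk held a small number of such circles. Among AG-GC* circles 95 began at an intron's first base with its end known, and 74 of these were on the minus strand. The corresponding numbers were 48 and 41 for AG-AT* and 37 and 27 for AC-AT*. Of None circles 0.311% began at an intron's first base.

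Lariat circles were listed in 2 or more libraries in 18.7% of cases, and none was in CIRIquant. In Tbl1xr1, which encodes a subunit of a corepressor complex, 2 lariat circles began at the same intron base and ended 1 base apart. The one ending 30 bases before the intron's end, chr3:22257389-22257960, had 39 reads in Adar2KO replicate 3 and 11 in WT replicate 2. The one ending 29 bases before it, chr3:22257389-22257961, had 12 and 10 reads in Adar1-2KO replicates 1 and 2 and 17 and 9 in Adar2KO replicates 1 and 2. No library listed both, and together they were in 6 libraries.

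Circles without AG-GT whose pair carried an asterisk were the least reproducible of those with a pair. They were mostly short, with median spans of 740 to 900 bases, and 95.6% to 99.3% were listed in 1 library, depending on the pair. Together the 4 pairs had 1 circle in CIRIquant. Hosts were ranked by their number of circles without AG-GT of any kind. Dync1h1, the heavy chain of cytoplasmic dynein, hosted 74 circles without AG-GT, of which 36 had AG-AT* and 25 had AG-GC*. Malat1, a nuclear noncoding RNA, hosted 72, the maternally expressed noncoding RNA Meg3 hosted 44, the kinase gene Camk2a hosted 41 and the microtubule-associated protein gene Map1b hosted 32. The glutamate transporter gene Slc1a2 also hosted 32, the ubiquitin ligase gene Ttc3 hosted 30 and the kinesin gene Kif1a hosted 29. In Kcnip4, a potassium channel-interacting protein gene, and Pcdh9, a protocadherin gene, None was the most frequent kind, with 41 of 62 and 26 of 46 circles.

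Malat1 had the most reads without AG-GT of any host, 10714, and the circle that held them changed from library to library. The circle chr19:5850759-5850805 with AG-AT*, of 47 bases, had 2004 reads in Adar1-2KO replicate 1 and 2039 in Adar2KO replicate 1 and was unlisted elsewhere. The circle chr19:5850763-5851199 with AG-AT* had 1285 reads in Adar1-2KO replicate 2, 1651 in WT replicate 2 and 1412 in WT replicate 3 and was unlisted in the other 5 libraries. Over all its circles without AG-GT, Malat1 had 2102, 1404 and 198 reads in Adar1-2KO brains, 2401, 618 and 420 in Adar2KO brains and 2068 and 1519 in WT brains. Per 100000 reads of the library these sums were 469, 473 and 29.4 in Adar1-2KO brains, 659, 138 and 98.7 in Adar2KO brains and 1007 and 814 in WT brains, so that both WT values lay above all mutant values. Circles of 1285 to 2039 reads that were listed in some libraries and unlisted in others made up most of the high sums, and no test was made of a sum over such circles.

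The locus LOC118568312 gave a similar case. Its antisense circle chr17:40155251-40156559 with AG-GC* had 0, 0 and 0 reads in Adar1-2KO brains, 428, 388 and 0 in Adar2KO brains and 176 and 80 in WT brains. Other circles without AG-GT of the same host held 177 reads in Adar1-2KO replicate 3 and 421 reads in Adar2KO replicate 1. With AG-GT circles included, the locus had 90, 899 and 345 reads in Adar1-2KO brains. It had 924, 482 and 360 reads in Adar2KO brains and 208 and 169 in WT brains. In Adar1-2KO replicate 2, 886 of the reads were in AG-GT circles.

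None circles, the largest kind, were nearly all single events. Of 17384, 98.9% were listed in 1 library, 4 were in all 8, and 105 were in CIRIquant, with 24408 reads. The class was exon for 1 of them, intron for 3214 and intergenic for 14169. The circle chr17:33600173-33601560 in an intron of Zfp101, a zinc finger gene, was an exception with 47, 31 and 53 reads in Adar1-2KO brains, 61, 108 and 58 in Adar2KO brains and 32 and 27 in WT brains and 4699 CIRIquant reads. An intergenic circle, chr12:5501681-5502852, had 38, 39 and 0 reads in Adar1-2KO brains, 44, 43 and 54 in Adar2KO brains and 0 and 19 in WT brains, and 3103 CIRIquant reads. A circle in an intron of Trit1, a gene of tRNA modification, chr4:122933239-122933991, had 23, 9 and 73 reads in Adar1-2KO brains, 15, 9 and 21 in Adar2KO brains and 6 and 11 in WT brains.

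The ends of a small number of circles shared a long run of bases. The tables' field of equivalent bases held 20 or more bases in 35 of the circles without AG-GT, 18 of them None. The same held for 17 of the AG-GT circles without and 193 of those with an asterisk. Such a run leaves the place of the junction undefined within it. Runs of repeated simple sequence are shown here as the tables give them, in lower case throughout. The first belongs to a None circle of Spock2, a brain proteoglycan gene, at chr10:59969471-59970841, and holds 66 bases that are all a or g. The second belongs to a None circle with no host at chr9:45555916-45557647, and the third to an AG-GC* circle of Dhx30, an RNA helicase gene, at chr9:109936629-109937082.
Spock2: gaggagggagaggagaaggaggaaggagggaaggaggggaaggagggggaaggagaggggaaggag
no host: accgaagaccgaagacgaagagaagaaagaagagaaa
Dhx30: ggaaaaaggaaaaggaaaggaaggagggg
All 3 circles were listed in 1 library, with 2 or 3 reads.

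A circle could also change its kind between libraries. The 9 circles with AG-GT in one library and not in another included the circle chr17:26955763-26962105 of Crebrf, a regulator of a CREB family factor. It was listed as AG-AT* with 819 reads in Adar1-2KO replicate 2 and as AG-GT with 654 to 1618 reads in the other 7 libraries. A further 53 circles lacked AG-GT throughout but were listed with several kinds.

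By genotype, circles without AG-GT made up 18.2%, 16.4% and 17.3% of circles in Adar1-2KO libraries, 14%, 18.7% and 15.1% in Adar2KO libraries and 14.2% and 13% in WT libraries. All 3 Adar1-2KO values and 2 of 3 Adar2KO values lay above both WT values. Their shares of reads were 6.92%, 6.66% and 7.84% in Adar1-2KO libraries, 5.86%, 7.01% and 5.26% in Adar2KO libraries and 6.37% and 5.82% in WT libraries. Among circles without AG-GT, those with other letters and no asterisk made up 11.8%, 13.1% and 10.2% in Adar1-2KO libraries, 20.6%, 15.6% and 20.1% in Adar2KO libraries and 15.1% and 14.7% in WT libraries, with no overlap between the genotypes. Lariat circles made up 3.44%, 4.12% and 2.32% in Adar1-2KO libraries, 4.7%, 3.01% and 4.8% in Adar2KO libraries and 5.47% and 6.13% in WT libraries. None of 27 such comparisons passed the two-sided exact permutation test, whose smallest p is 0.1 with these group sizes (lowest adjusted p = 0.3375). The WT libraries were also the smallest, with 205273 and 186594 reads, and the part of library size in these shares was not tested.

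**Figure D5:**
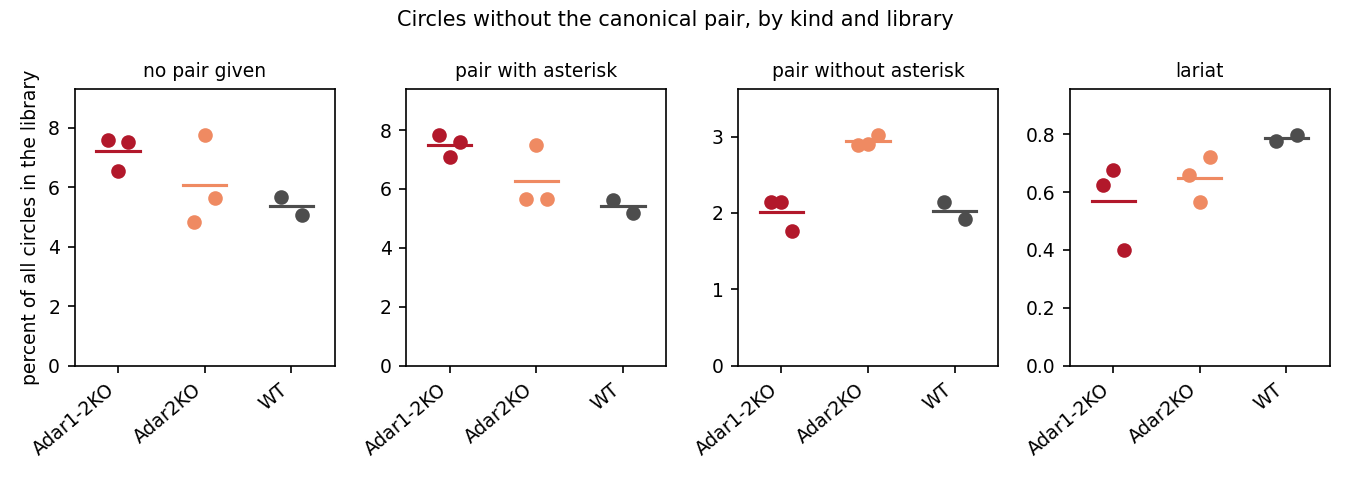
Points give, for each library, circles of each kind without the canonical pair as a percent of all circles in the library, with Adar1-2KO left, Adar2KO in the middle and WT right in each panel. The panel of circles with other letters and no asterisk shows 2.89%, 2.91% and 3.02% in Adar2KO libraries, above the values of 1.76% to 2.15% in the other libraries.

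For single circles, the test was run on counts of every ONT circle that reached 5 reads in 3 or more libraries, which kept 10367 circles and 360 of the 39861 without AG-GT. Of these 360, 222 had other letters and no asterisk. No circle without AG-GT passed an adjusted p of 0.05 in edgeR in any of the 3 comparisons. Over all circles tested, percent called was 0 for Adar1-2KO against WT, 0.00965 for Adar2KO against WT (1 circle) and 0.473 for Adar1-2KO against Adar2KO (49 circles). In the last comparison 0.347% of circles were called higher and 0.125% lower in Adar1-2KO. At an unadjusted p under 0.05 there were 32, 24 and 50 of the 360 circles in these comparisons, which is 8.89%, 6.67% and 13.9%, against 7.32%, 4.21% and 10.4% of all circles tested. The median log2 fold change of the 360 circles was -0.1, 0.37 and -0.47, against 0.03, 0.16 and -0.21 over all circles tested. The comparisons share libraries and are not independent. Counts were simulated at the sizes of these libraries, with changed circles drawn from all 10367 tested and changed alike in both mutants. In these counts edgeR called 56% of circles raised 16-fold and 14% of circles raised 4-fold in Adar1-2KO against WT. It called 8% of circles lowered to 0.0625 and 2% of circles lowered to 0.25 of their level. Falls, and rises of the smaller size, were thus mostly not called in the simulation. Detection among the 360 circles without AG-GT alone was not simulated.

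DESeq2, run on the same circles, called 1 circle without AG-GT for Adar1-2KO against WT, 0 for Adar2KO against WT and 5 for Adar1-2KO against Adar2KO, where it called 6.98%, 1.4% and 5.14% of the circles to which it gave an adjusted p. The circle called against WT was that of LOC118568312, which all Adar1-2KO libraries left unlisted, although they listed other circles of this locus, as given above. The other calls between the mutants were circles of Rnf214 and Rnf169, which were higher in Adar1-2KO. A circle of Senp5 and Gm15694 and an intergenic circle were lower. The Rnf214, Rnf169 and Senp5 and Gm15694 circles had the pair tc-GT on the minus strand. This pair reads AG-GT once its lower-case letters are complemented, so these circles lacked AG-GT only as written. The Rnf169 circle had a log2 fold change of 0.79 in DESeq2 (adjusted p = 0.0337) and of 0.73 with an SE of 0.23 in edgeR (adjusted p = 0.276), while its CIRIquant values, given above, overlapped between the mutants. The circle chr16:31796498-31809283, in Senp5, a SUMO protease gene, and in Gm15694, had 12, 11 and 0 reads in Adar1-2KO brains, 67, 68 and 48 in Adar2KO brains and 39 and 34 in WT brains. Its log2 fold change between Adar1-2KO and Adar2KO was -2.86 with an SE of 0.82 (edgeR adjusted p = 0.236, DESeq2 adjusted p = 0.00999). CIRIquant gave 4.55, 3.99 and 7.73 per 100000 back-splice reads in Adar1-2KO brains, 10.2, 16.2 and 12.8 in Adar2KO brains and 16, 19.4 and 17.1 in WT brains, where the Adar1-2KO values were again the lowest. A second Senp5 circle with the same last base, chr16:31807758-31809283, was unlisted in all Adar1-2KO libraries and had 15, 8 and 7 reads in Adar2KO brains and 8 and 3 in WT brains. The intergenic circle chr1:75151487-75151611 had 6, 4 and 0 reads in Adar1-2KO brains, 35, 22 and 35 in Adar2KO brains and 10 and 3 in WT brains.

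Leaving out 1 library let edgeR call 3 circles without AG-GT as written. Of these, the 4933406I18Rik circle and the Senp5 and Gm15694 circle read AG-GT once their lower-case letters are complemented. Without Adar1-2KO replicate 2, the circle of 4933406I18Rik passed against WT (adjusted p = 0.0369) and against Adar2KO (adjusted p = 0.00581), since no Adar1-2KO ONT library then listed it, although CIRIquant counted 1381 and 784 reads for it in Adar1-2KO replicates 1 and 3. Without Adar1-2KO replicate 3, the Senp5 and Gm15694 circle passed between the mutants with a log2 fold change of -2.19 and an SE of 0.34 (adjusted p = 0.0142). Without Adar2KO replicate 3, the LOC118568312 circle passed against WT (adjusted p = 0.00484) and between the mutants (adjusted p = 0.00273).

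Of the circles with the lowest p for Adar1-2KO against WT, the Mir7052 circle chr7:44119194-44119801 with AG-AT* was unlisted in all Adar1-2KO libraries and had 10, 0 and 6 reads in Adar2KO brains and 24 and 20 in WT brains (edgeR adjusted p = 0.315 for Adar1-2KO against WT). The circle chr8:41452765-41453795 was likewise unlisted in Adar1-2KO brains and had 6, 4 and 4 reads in Adar2KO brains and 9 and 6 in WT brains. For Adar2KO against WT the lowest p belonged to the Malat1 circle of 437 bases, to chr19:30069540-30070117, which had 14, 3 and 12 reads in Adar2KO brains and was unlisted in WT brains, and to chr4:110067007-110068622, with an adjusted p of 1 for each in edgeR.

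The share of circles without AG-GT was also counted for cell type marker genes. The 10 neuronal genes hosted 144 with 909 reads, which was 20.7% of their circles. The 8 astrocyte genes hosted 56 (20.5%), the 8 genes of the oligodendrocyte lineage 55 (20.8%), the 7 microglial genes 3 (15%) and the 6 endothelial genes 3 (11.1%), against 13.6% for all named hosts. The 3 microglial and 3 endothelial circles had 8 and 6 reads. In the lists, single circles were mostly high in Adar1-2KO replicate 3 alone, as with 66 reads of a Snap25 circle and 60 of a Slc1a2 circle, both unlisted in the other 7 libraries. Snap25 encodes a synaptic fusion protein. Of the 4 genes altered in the mutants, 3 hosted circles, and 17 of these without AG-GT had 88 reads. The one with most was a Gria2 circle with AC-AT*, chr3:80615195-80616751, with 32 reads in Adar1-2KO replicate 3 and none listed elsewhere.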

How the data were processed

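Circular RNAs were sequenced from whole mouse brains on ONT and Illumina instruments. The deposited ONT tables give read counts per circle from 2 upward, with the splice-site pair, class and host, from a caller that is not given in the sources used here. The authors' CIRIquant tables give back-splice read counts, made with CIRIquant 1.1.2 per the file headers. Per the submitters' processing notes, bcl2fastq, BWA 0.7.17 and DESeq2 2.11.40.8 were used with GRCm39. In the Adar1-2KO CIRIquant tables the values stand 1 column right of their headers, which was corrected.

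Circles were joined by chromosome, start and end on GRCm39. Circles that reached 5 reads in 3 or more libraries entered edgeR 4.0.16 (quasi-likelihood F-test, TMM, all 8 libraries in 1 fit, two-sided, Benjamini-Hochberg adjustment at 0.05); DESeq2 1.42.0 was an alternative. SE is that of the fitted log2 fold change. Shares were compared by exact permutation in Python 3.11.15 with scipy 1.17.1. The edgeR step was tested on simulated data, with 200 of 10367 circles changed. Replicate numbers did not pair the libraries (correlations of deviations from -0.03 to 0.06). Named circles were those with most reads per kind, in all 8 libraries, in CIRIquant, in gene lists and by host, and the 3 of lowest p per comparison where none passed. The members and lists were chosen with earlier results of these data known. The labels mention no strand marking, so hosts among overlapping or antisense genes are uncertain. The genome was not used here, so sequences are those of the deposited tables.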

Additional observations from a re-analysis of the deposited data

How the results depend on the processing

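Of 641 values recomputed under other settings for 48 results, 591 were counted as the same. For measures and shares this meant the same direction and the same side of the threshold. For counts of circles called it meant a similar number called, or none in both. The genotype shares could not cross the threshold, since the smallest p of their exact permutation test is 0.1 or more. The antisense share changed direction at 5 or more reads per circle (1.022 percentage points higher without AG-GT) and against AG-GT without asterisk alone (4.093 higher). The intron share changed direction against AG-GT with an asterisk alone (-3.75). The settings on the asterisk and on lower-case letters were chosen after seeing the data. For circle counts, complementing lower-case letters on the minus strand was applied only to the main edgeR fit. No circle without AG-GT was called there, so this setting could not change a call. Among the DESeq2 calls, the Rnf169, Rnf214 and Senp5 and Gm15694 circles read AG-GT once complemented. At 5 or more reads per circle, the Adar2KO and WT shares of AC-AT* and AC-GT* differed by -0.271 and 0.163 points, opposite to the main values; the measures at 2 reads and over 2 reads then had no value. The causes were not tested.

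Counts of circles called in edgeR moved most. For Adar1-2KO against WT, Adar2KO against WT and Adar1-2KO against Adar2KO, DESeq2 called 50, 10 and 181 circles, of which 1, 0 and 5 lacked AG-GT. It gave an adjusted p to only 716, 716 and 3522 circles in these comparisons. With no filter beyond 2 listed libraries the counts were 107, 50 and 211 of all and 10, 6 and 22 without AG-GT. Circles listed in 2 or more libraries numbered 2189 without AG-GT, 23693 with AG-GT and no asterisk and 9196 with AG-GT and an asterisk. Whether the shares called differed between these kinds was not tested. At an adjusted p under 0.1, 3 circles passed for Adar1-2KO against WT. With the replicate number as a block, 1, 2 and 28 of all circles passed, and the difference in the share of reads between Adar2KO and WT was 0.037 points; since the numbers do not pair the libraries, the block has no meaning in the design.

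Leaving out each library in turn, the calls ranged from 0 to 2, from 0 to 1 and from 8 to 119 of all circles in these comparisons; without Adar1-2KO replicate 3 the last count was 119. Without AG-GT they ranged from 0 to 1, 0 to 0 and 0 to 1. A WT group left with 1 library was assumed to vary like the others. Differences in shares that changed direction ranged from -0.878 to 0.208 points (AG-GC*, Adar1-2KO against Adar2KO), from -0.74 to 0.346 (AG-GC*, Adar2KO against WT), from -0.144 to 0.335 (AC-AT*, Adar2KO against WT), from -0.00649 to 0.564 (AC-GT*, Adar1-2KO against WT), from -0.501 to 0.0692 (AC-GT*, Adar2KO against WT) and, for the share of reads, from -0.537 to 0.338 (Adar2KO against WT). None of these shares passed a test. Circles at 2 reads, 61.6% of those without AG-GT, limit how often a second listing could be seen.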
